A study of Mus musculus with 16 samples.

Results

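The regulators of G protein signalling described here are 10 genes of the RGS family, Rgs1, Rgs2, Rgs3, Rgs4, Rgs5, Rgs10, Rgs12, Rgs14, Rgs16 and Rgs19, out of 36799 genes or unnamed targets on the array. They were found as all probes, controls left out, whose RefSeq accession belongs to one of these genes, which gave 18 probes. The choice rests on measured values: Rgs2 was selected on its higher level in the knockout on both diets, so its genotype values are a description with no test. Skeletal muscle RNA of male mice aged 21 to 23 weeks was measured on 16 one-colour arrays, 4 per group. The groups were wild type (WT) and muscle CB1 knockout (CB1KO) mice, each on a standard diet (SD) or a diet high in fat and sugar (HFHS) for 15 weeks. SD gave 16.7% of energy as fat and 12.4% as sugar, and HFHS gave 49.2% and 32.2%. The knockout carried a floxed Cnr1 gene, which encodes the CB1 receptor, and Cre under the ACTA1 promoter, which is active in muscle fibres. By this design, other cells of the muscle keep the receptor. The breeding text gives both genotypes as floxed and Cre-positive, and the genotype was taken from the sample titles. It also mentions vehicle or S961 treatment without saying which animals received it, and it does not name the muscle. For 2 of the 4 groups, CB1KO_SD and WT_HFHS, a separate diet tag contradicts the sample titles, which decided the groups here.

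A G protein coupled receptor switches its G protein on by exchanging GDP for GTP on the alpha subunit, and the alpha subunit switches itself off by cleaving the GTP. RGS proteins speed up this cleavage and so shorten the signal. CB1 couples mainly to alpha subunits of the Gi and Go class, which lower cyclic AMP. Rgs1, Rgs2, Rgs3, Rgs4, Rgs5 and Rgs16 belong to a subfamily of mostly small proteins that act on Gi, Go and Gq class subunits, with Rgs2 known for its preference for Gq. Rgs10, Rgs12 and Rgs14 form another subfamily, in which Rgs12 and Rgs14 are larger scaffolds that also bind Ras proteins and inactive Gi subunits. Rgs19, also called GAIP, belongs to a further subfamily that acts on Gi class subunits.

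All values below are log2 processed intensities minus the array's own 75th percentile, so a negative value lies under that percentile, and they were not compared between genes. All 18 probes were measured, and 17 reached the limit for testing (clear of background on 4 or more of the 16 arrays), with at least 1 probe for each of the 10 genes. Where a gene had several probes, the brightest stands for it. Muscle fibre markers stood well above background on every array, 7 of 7, with summed levels of 11.4 to 12.2 on the same log2 scale. The share of spots well above background ran from 56.7% to 75.04% over the arrays. Signal spread (SD of log2 signal) was narrowest on CB1KO_SD replicate 2, at 2.89, and widest on CB1KO_HFHS replicate 1, at 3.97. Each diet had a slide of its own, so the diet and the slide cannot be told apart. Within a slide, WT and CB1KO arrays filled separate rows, so genotype and row cannot be told apart either. The labels call the arrays replicates and do not say which came from separate litters or cages. The median over all 28964 genes tested was -0.12 for CB1KO minus WT on SD and -0.13 on HFHS, and the genes below are given without subtracting it. In whole muscle, fewer cells of a type and less RNA per cell cannot be told apart.

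Of the members, 5 lie on chromosome 1: Rgs2, Rgs1, Rgs16, Rgs5 and Rgs4. In the order of genes on GRCm38.p6, Rgs2, Rgs13, Rgs1, Rgs21 and Rgs18 follow each other directly, Rgs8 lies next to Rgs16, and Rgs5 lies next to Rgs4. Promoter windows were matched by symbol in RefSeq for 8 of the 10 members, 12 windows in all. Rgs1 and Rgs14 were not matched. Rgs2 was the member with the largest genotype difference. Rgs4 had a lower mean in CB1KO on HFHS and Rgs16 a lower mean on HFHS in CB1KO, and neither difference passed the test described below. For these 3 members on chromosome 1, the 250 bases before the start are shown. They are given 5′ to 3′ on the gene's strand, at chr1:144004150-144004399 (minus strand) for Rgs2, chr1:169747643-169747892 (minus strand) for Rgs4 and chr1:153740103-153740352 (plus strand) for Rgs16, all on GRCm38.p6. Capitals mark TGACG or its reverse complement CGTCA, the shorter form of the motif bound by cyclic AMP responsive factors.
Rgs2: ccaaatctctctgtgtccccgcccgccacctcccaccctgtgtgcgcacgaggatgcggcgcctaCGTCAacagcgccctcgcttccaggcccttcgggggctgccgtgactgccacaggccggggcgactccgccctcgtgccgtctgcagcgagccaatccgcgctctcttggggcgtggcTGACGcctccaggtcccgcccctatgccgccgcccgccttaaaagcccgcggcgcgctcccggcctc
Rgs4: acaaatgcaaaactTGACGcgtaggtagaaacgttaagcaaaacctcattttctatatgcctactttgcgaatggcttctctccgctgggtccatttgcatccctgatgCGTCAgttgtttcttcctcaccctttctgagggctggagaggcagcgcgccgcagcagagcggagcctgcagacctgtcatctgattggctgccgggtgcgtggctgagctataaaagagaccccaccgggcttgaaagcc
Rgs16: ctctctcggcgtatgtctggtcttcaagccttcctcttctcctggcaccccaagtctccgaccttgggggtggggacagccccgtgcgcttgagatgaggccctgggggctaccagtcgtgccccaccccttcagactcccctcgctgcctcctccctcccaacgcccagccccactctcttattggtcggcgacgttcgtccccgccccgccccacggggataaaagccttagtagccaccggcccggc
TGACG was searched on both strands and lay in 17.8% of 32851 promoter windows of the same length. Among the member windows it lay in 3 of 12, those of Rgs2, Rgs4 and 1 of Rgs12. In the Rgs2 window the matches began 185 and 67 bases before the start, and in the Rgs4 window 236 and 141 bases before it. The full palindrome TGACGTCA lay in 1.55% of all windows and in 0 of the 12. TATAAA lay in 12.4% of all windows, both windows of Rgs3 and that of Rgs4, and CAGCTG, a binding motif of muscle helix-loop-helix factors, in 13% of all windows and 1 window of Rgs12. These are letter matches and not measured sites.

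Rgs2 encodes a small inhibitor of Gq signalling that also inhibits adenylyl cyclase and is itself induced by many G protein signals. Its probe, A_55_P2109857 for NM_009061, stood well above background on all 16 arrays. In WT_SD its level was 2.05, 2.11, 1.38 and 2.24, and in CB1KO_SD 3.57, 3.27, 3.04 and 3.67. In WT_HFHS it was 2.25, 2.04, 2.11 and 2.26, and in CB1KO_HFHS 3.18, 3.98, 4.15 and 3.96. On both diets every CB1KO array lay above every WT array of that diet, and the lowest of the 8 knockout values lay above the highest of the 8 WT values. Over all genes, 0.981% were higher in CB1KO without overlap on SD and 3.36% on HFHS, and 0.00345% and 0.235% passed the test (limma, adjusted p threshold 0.05), figures from which nothing is read for Rgs2. Rgs2 was 1.44 ± 0.23 (log2 difference ± SE, n = 4 per group) higher in CB1KO on SD, which is 2.72-fold, and 1.65 ± 0.23 higher on HFHS, which is 3.14-fold. Over both diets the difference was 1.55 ± 0.16. Among the 28964 genes, ordered from the most positive difference, Rgs2 was at place 146 on SD, 96 on HFHS and 66 over both. The HFHS difference minus the SD difference was 0.21 ± 0.32, and it ran from 0.090 to 0.42 with 1 array left out.

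The order of the Rgs2 group means was WT_SD at 1.94 ± 0.39 (SD, n = 4), WT_HFHS at 2.17 ± 0.11, CB1KO_SD at 3.39 ± 0.29 and CB1KO_HFHS at 3.82 ± 0.43. Neighbours of the same genotype overlapped. The diet contrasts, which did not serve to pick Rgs2, did not pass: HFHS minus SD was 0.22 ± 0.23 in WT (limma, adjusted p = 0.996) and 0.43 ± 0.23 in CB1KO (limma, adjusted p = 0.578). Their 95% intervals ran from -0.27 to 0.71 in WT and from -0.06 to 0.92 in CB1KO. Without WT_SD replicate 3, the lowest Rgs2 array, the WT value was 0.03. A second Rgs2 probe stood well above background on 1 of 16 arrays, and its differences, 0.30 on SD and 0.92 on HFHS, carry the same sign but rest on values near background.

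Slow fibre, neutrophil and adipocyte markers are set beside Rgs2, and none of them passed the test in any contrast. On SD 7 of 7 slow fibre markers had higher means in CB1KO, as did 32.6% of all genes, with summed levels of 8.19 to 9.72 against 2.45 to 7.89 in WT_SD. On HFHS 4 of the 7 had higher means, as did 32.3% of all genes, and summed levels ran from 3.09 to 9.38 in CB1KO and from 3.68 to 9.97 in WT. Their part in the Rgs2 difference was not tested. Neutrophil markers, of which 5 were tested, had summed levels of 0.96 to 2.23 in CB1KO_SD against 0.29 to 0.90 in WT_SD, and overlapped on HFHS. Adipocyte markers had lower means in CB1KO_SD, 5 of 5, with summed levels of 7.30 to 7.49 against 7.56 to 8.47 in WT_SD, and overlapped on HFHS. This sum is mostly Fabp4, with a mean of 7.65 in WT_SD against at most 2.99 for the other markers. Fabp4 differed by -0.33 ± 0.23 on SD (limma, adjusted p = 0.760). The part of neutrophils and adipocytes was not tested either. Lymphocyte and platelet markers overlapped between the genotypes on both diets.

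**Figure D1:**
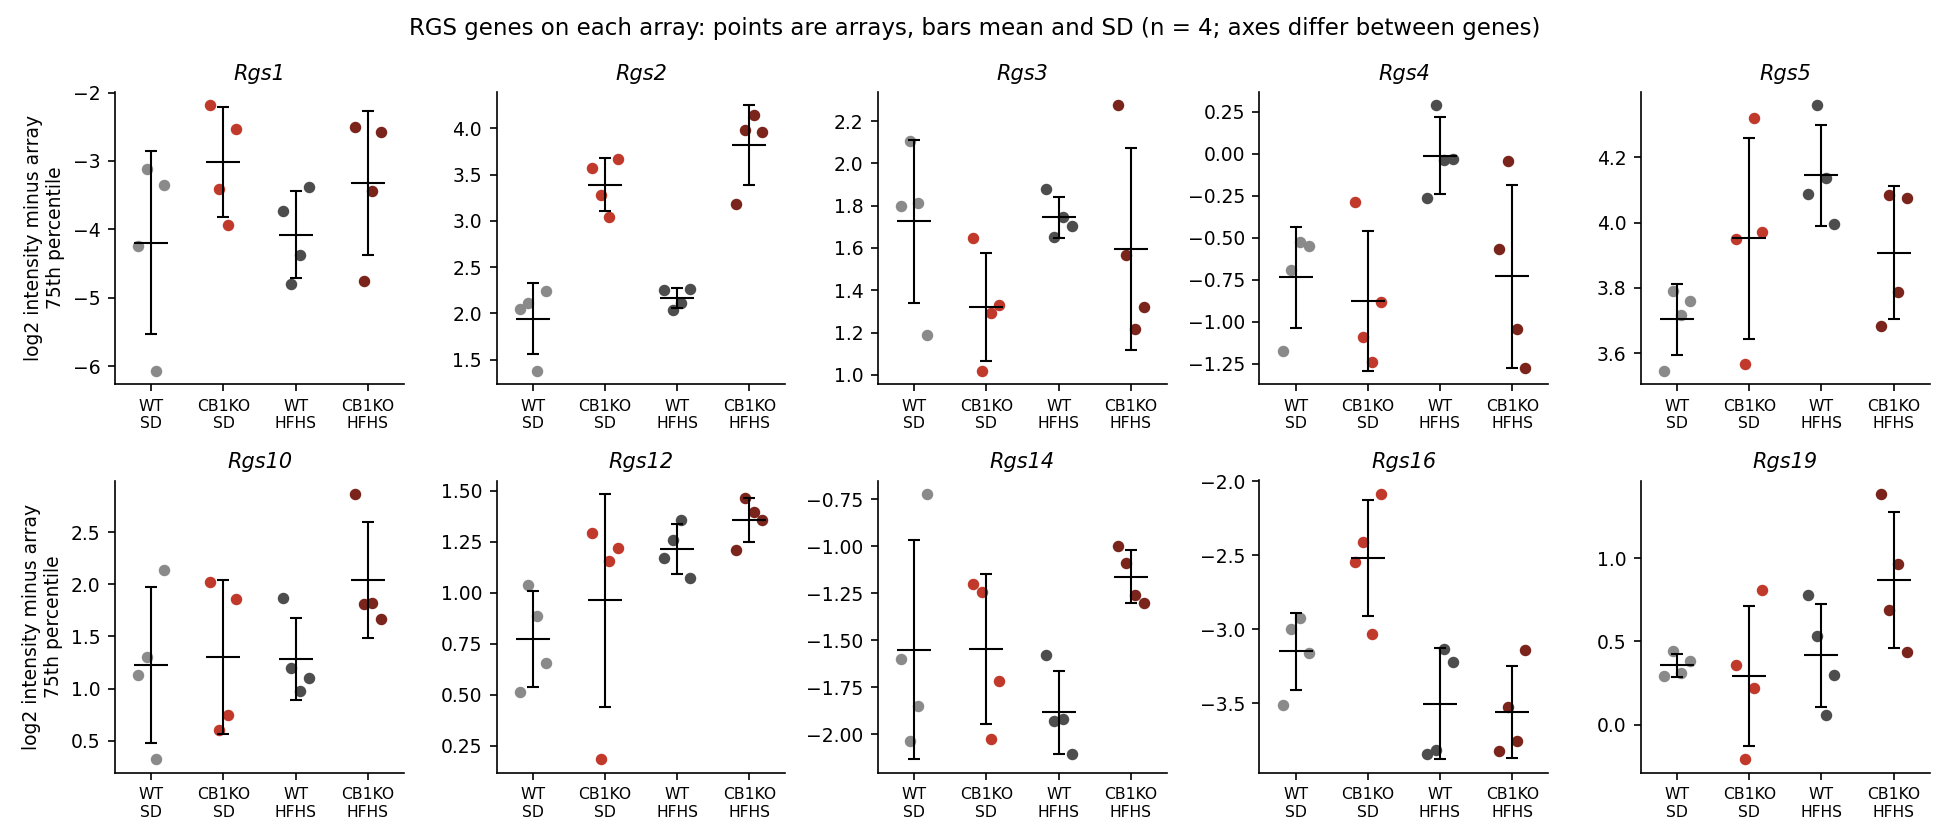
Level of each of the 10 RGS genes on each array (log2 processed intensity minus the array's 75th percentile, vertical axes differ between genes), by genotype and diet. Points are arrays and bars are the mean and SD of 4 arrays. Rgs2 shows no overlap between genotypes on either diet, from 1.38 to 2.26 in WT and from 3.04 to 4.15 in CB1KO, while the groups of most other members overlap.

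The 5 named genes whose values followed those of Rgs2 most closely over the 16 arrays were Plekhh1 (Pearson r = 0.922), Fgl1 (0.921), Sln (0.918), Tnnt2 (0.912) and Sgk2 (0.911). These values share the arrays and the group differences of Rgs2. With the group means removed, r was 0.57 for Plekhh1, 0.57 for Fgl1, 0.65 for Sln, 0.81 for Tnnt2 and 0.62 for Sgk2. Without CB1KO_HFHS replicate 1, where Rgs2 was at 3.18 and Sln at 4.72, these were 0.46 for Plekhh1, 0.47 for Fgl1, 0.35 for Sln, 0.64 for Tnnt2 and 0.59 for Sgk2, a setting chosen after seeing the data. Sln encodes sarcolipin, an inhibitor of the calcium pump of the sarcoplasmic reticulum. Its mean level was 1.29 in WT_SD, 3.97 in CB1KO_SD, 1.16 in WT_HFHS and 7.02 in CB1KO_HFHS. Tnnt2 encodes cardiac troponin T, which developing muscle also makes. Its mean level was 0.28 in WT_SD, 2.004 in CB1KO_SD, -0.07 in WT_HFHS and 3.61 in CB1KO_HFHS. Fgl1 stood well above background on 7 of 16 arrays and Sgk2 on 6, so their lower values lie near background.

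**Figure D2:**
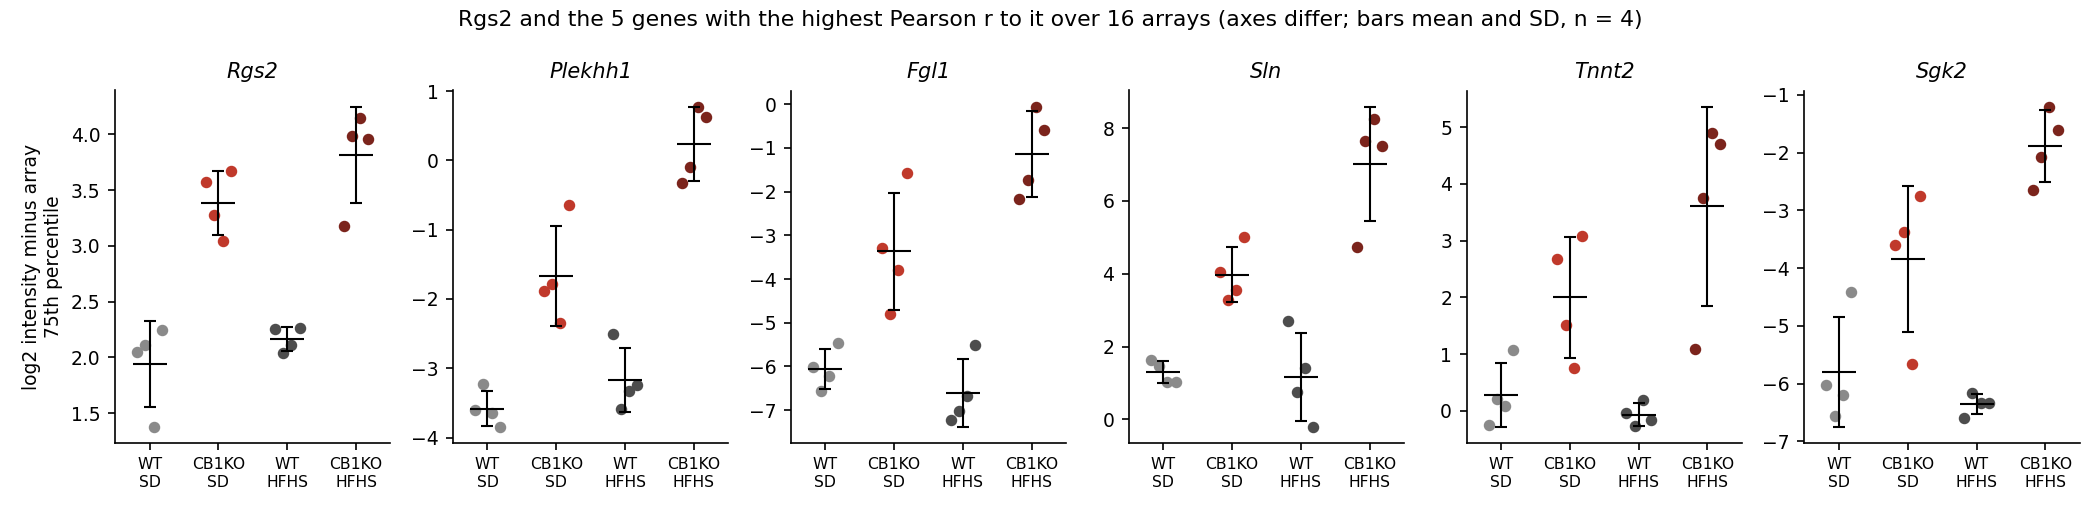
Rgs2 beside Plekhh1, Fgl1, Sln, Tnnt2 and Sgk2, the 5 named genes with the highest Pearson r to it over 16 arrays (log2 processed intensity minus the array's 75th percentile, axes differ between genes). Points are arrays and bars are the mean and SD of 4 arrays. In each panel both CB1KO means lie above both WT means, with Sln at 3.97 and 7.02 in CB1KO against 1.29 and 1.16 in WT. Rgs2 was picked for its higher level in CB1KO and the others for following it, so this order follows from the choice.

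The other 9 members were tested between genotypes, which Rgs2 was not. On SD, 0 of the 9 passed (limma, adjusted p threshold 0.05), where 0.00345% of all genes did, and 1 of 9 had an unadjusted p under 0.05, against 8.72% of all genes. On HFHS 0 of 9 passed against 0.235% of all genes, with 2 under an unadjusted 0.05 against 8.97%. Averaged over the diets 0 of 9 passed against 0.708%, with 1 under an unadjusted 0.05 against 14.2%. For the genotype-by-diet interaction 0 of 9 passed against 0% of all genes, with 1 under an unadjusted 0.05 against 3.54%. The median difference of the 9 was 0.08 on SD and 0.14 on HFHS, beside -0.12 and -0.13 over all genes. The range of the 9 was -0.40 to 1.18 on SD and -0.72 to 0.76 on HFHS.

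**Figure D3:**
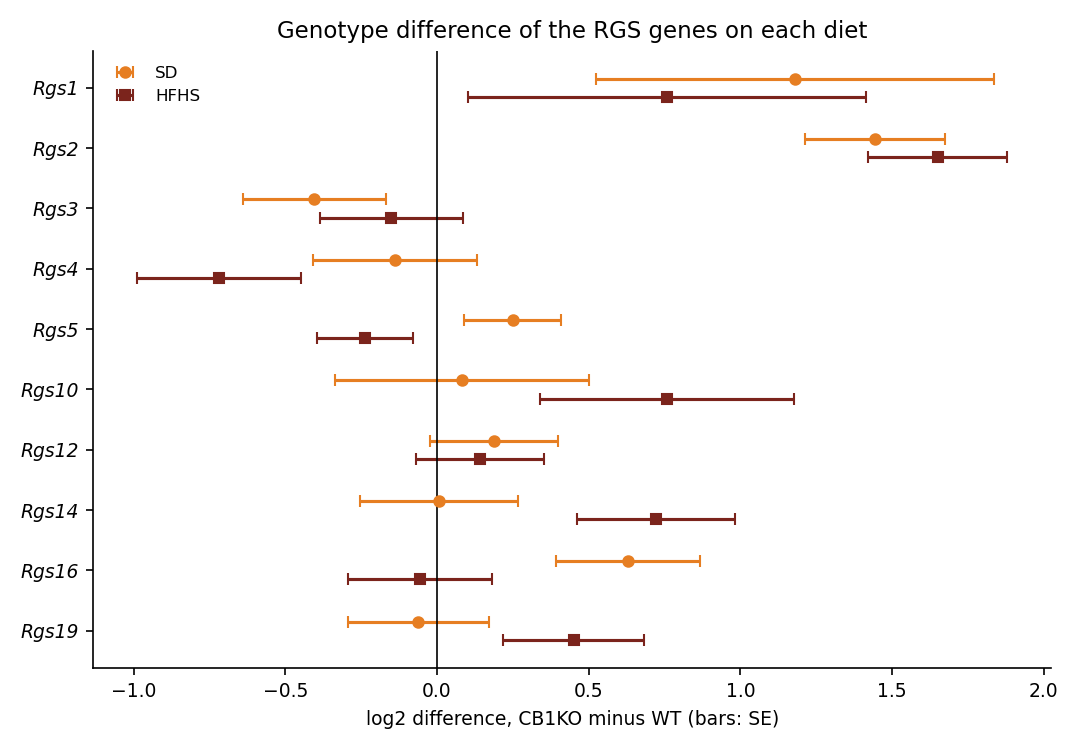
Log2 difference between CB1KO and WT for the 10 RGS genes on SD (circles) and HFHS (squares), with standard errors. Rgs2 lies at 1.44 on SD and 1.65 on HFHS. Rgs4 lies below 0 on HFHS at -0.72, and Rgs14 and Rgs10 lie above 0 at 0.72 and 0.76, none of the 3 past the threshold.

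Rgs1, known for limiting chemokine receptor signalling in lymphocytes, lies next but 1 to Rgs2 on chromosome 1. Its probe was dim, standing well above background on 10 of 16 arrays and on 1 of 4 in WT_SD. Its level was -4.24, -3.12, -6.07 and -3.35 in WT_SD and -2.19, -3.40, -3.94 and -2.53 in CB1KO_SD. The groups overlapped, and the difference was 1.18 ± 0.66 on SD (limma, adjusted p = 0.674). On HFHS it was 0.76 ± 0.66 (limma, adjusted p = 0.756), and over both diets 0.97 ± 0.46 (limma, adjusted p = 0.368). Without WT_SD replicate 3, the dimmest array, the SD value was 0.55, and with normexp and quantile normalization it was 0.50. In the same row of genes, Rgs21 was at -0.24 ± 0.54 on SD and -0.94 ± 0.54 on HFHS (limma, adjusted p = 0.655 on HFHS). Rgs18, named here for its position, was at -0.49 on SD and 0.29 on HFHS, and Rgs13 stood well above background on 2 of 16 arrays and was not tested.

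Rgs16 acts on Gi, Go and Gq class subunits. Its probe stood well above background on 14 of 16 arrays, 2 of 4 in WT_SD. Its level was -3.51, -3.00, -2.92 and -3.16 in WT_SD and -2.54, -2.41, -3.03 and -2.09 in CB1KO_SD. On HFHS it was -3.84, -3.81, -3.14 and -3.22 in WT and -3.82, -3.53, -3.75 and -3.14 in CB1KO. Levels were highest in CB1KO_SD, of which 3 arrays lay above every array of the other groups. Between genotypes Rgs16 differed by 0.63 ± 0.24 on SD (limma, adjusted p = 0.473) and by -0.06 ± 0.24 on HFHS (limma, adjusted p = 0.943), and the difference of these was -0.69 ± 0.33 (limma, adjusted p = 1.00). Normexp with quantile normalization gave 0.28 on SD.

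Rgs4, a regulator of Gi, Go and Gq class signalling, had 2 probes above background on all 16 arrays. The brighter was at -1.18, -0.70, -0.53 and -0.55 in WT_SD and at -0.29, -1.09, -1.24 and -0.89 in CB1KO_SD. On HFHS it was at -0.26, 0.29, -0.04 and -0.03 in WT and at -0.57, -0.04, -1.04 and -1.27 in CB1KO. The HFHS groups overlapped by 1 knockout array, replicate 2. The difference was -0.72 ± 0.27 on HFHS (limma, adjusted p = 0.433) and -0.14 ± 0.27 on SD (limma, adjusted p = 0.939). With array weights, which give arrays of unusual signal less influence, the HFHS value was -0.90 with adjusted p = 0.0337 (limma), where 4.33% of all genes were called lower. The other Rgs4 probe gave -0.44 on HFHS and 0.20 on SD, so the sign on SD differed between the probes.

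Rgs5, whose gene is a widely used marker of pericytes, lies next to Rgs4. Its level was 3.55, 3.79, 3.72 and 3.76 in WT_SD and 3.95, 3.57, 4.32 and 3.97 in CB1KO_SD. On HFHS it was 4.09, 4.36, 4.14 and 4.00 in WT and 3.68, 4.08, 3.79 and 4.08 in CB1KO. The groups overlapped between genotypes on both diets, with means higher in CB1KO on SD and lower on HFHS. The differences were 0.25 ± 0.16 on SD (limma, adjusted p = 0.734) and -0.24 ± 0.16 on HFHS (limma, adjusted p = 0.700), and the interaction was -0.49 ± 0.22 (limma, adjusted p = 1.00). The SD value was 0.13 without CB1KO_SD replicate 3 and 0.38 without replicate 2, and quantile normalization gave -0.14 on HFHS.

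Pericyte and smooth muscle markers, a list of 10 without Rgs5, are set beside Rgs4 and Rgs5. None of the 10 passed the test in any contrast. On HFHS 10 of 10 had lower means in CB1KO than in WT, where 32.3% of all genes had higher ones, with summed levels of 6.38 to 6.62 in CB1KO_HFHS and 6.69 to 7.18 in WT_HFHS. In WT 9 of 10 had higher means on HFHS, as did 42.6% of all genes, and summed levels ran from 6.19 to 6.89 in WT_SD. In CB1KO_SD they ran from 6.25 to 7.16. All 10 stood well above background on all 16 arrays. Endothelial markers had higher means in CB1KO on HFHS in 1 of 6. In WT, 5 of 6 endothelial, 7 of 7 slow fibre, 6 of 6 fibroblast and 4 of 5 adipocyte markers also had higher means on HFHS. Macrophage markers were higher there in 2 of 10 and muscle fibre markers in 1 of 7. The part of pericytes, smooth muscle or these other cells in the Rgs4 and Rgs5 values was not tested.

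Rgs3 regulates Gi and Gq class subunits. It had 3 probes above background on all arrays, and the brightest ran from 1.19 to 2.11 in WT_SD, 1.02 to 1.64 in CB1KO_SD, 1.65 to 1.88 in WT_HFHS and 1.22 to 2.27 in CB1KO_HFHS. The groups of this probe overlapped on both diets. The difference was -0.40 ± 0.23 on SD (limma, adjusted p = 0.692) and -0.15 ± 0.23 on HFHS (limma, adjusted p = 0.844). Without CB1KO_HFHS replicate 1 the HFHS value was -0.38. All 3 probes were lower in CB1KO on both diets, by -0.16 to -0.52 on SD and by -0.15 to -0.62 on HFHS. The probe at -0.62 did not overlap there, running from 1.12 to 1.57 in WT and from 0.15 to 0.96 in CB1KO. By their brightest probe, 6.71% of all genes were lower in CB1KO without overlap on HFHS.

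Rgs14, a scaffold that binds Ras proteins and Gi subunits, was at -1.58, -1.93, -1.92 and -2.11 in WT_HFHS and at -1.0, -1.09, -1.26 and -1.30 in CB1KO_HFHS. These groups did not overlap, as held for 3.36% of all genes in this direction. On SD it was at -1.60, -2.04, -1.85 and -0.72 in WT and at -1.20, -1.24, -2.03 and -1.72 in CB1KO, which overlapped. The difference was 0.72 ± 0.26 on HFHS (limma, adjusted p = 0.400) and 0.01 ± 0.26 on SD (limma, adjusted p = 0.999), and the interaction was 0.72 ± 0.37 (limma, adjusted p = 1.00). With array weights the HFHS value was 0.65 with adjusted p = 0.0460 (limma), where 2.91% of all genes were called higher, and with normexp and quantile normalization it was 0.46.

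Rgs10, a small Gi regulator known from immune cells and microglia, ran from 0.32 to 2.14 in WT_SD and from 0.60 to 2.02 in CB1KO_SD. On HFHS it was at 1.87, 1.19, 0.98 and 1.099 in WT and at 2.87, 1.81, 1.82 and 1.67 in CB1KO. The highest value was on CB1KO_HFHS replicate 1, the array with the widest signal spread. The difference was 0.76 ± 0.42 on HFHS (limma, adjusted p = 0.642) and 0.08 ± 0.42 on SD (limma, adjusted p = 0.981). Without that array the HFHS value was 0.48.

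Rgs19 had 3 probes above background on all arrays. The brightest was at 0.78, 0.53, 0.06 and 0.30 in WT_HFHS and at 1.39, 0.69, 0.96 and 0.44 in CB1KO_HFHS, and ran from 0.29 to 0.44 in WT_SD and from -0.21 to 0.81 in CB1KO_SD. The groups of this probe overlapped on both diets. The difference was 0.45 ± 0.23 on HFHS (limma, adjusted p = 0.622) and -0.06 ± 0.23 on SD (limma, adjusted p = 0.973). The other probes gave 0.56 and 0.58 on HFHS. Their groups did not overlap there, as held for 3.36% of all genes in this direction by their brightest probe. The first of these probes ran from -0.73 to -0.12 in WT_HFHS and from -0.012 to 0.56 in CB1KO_HFHS, and the second from -0.99 to -0.69 and from -0.47 to -0.055. Without CB1KO_HFHS replicate 1 the HFHS value of the brightest was 0.28.

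Macrophage markers are set beside Rgs10, Rgs14 and Rgs19. None of the 10 passed the test in any contrast. On HFHS 9 of 10 had higher means in CB1KO, as did 32.3% of all genes, with a median difference of 0.76. On SD it was 5 of 10 markers, beside 32.6% of all genes, with a median of 0.06. Their summed levels ran from 6.58 to 7.15 in CB1KO_HFHS, 6.36 to 6.66 in WT_HFHS, 6.26 to 6.72 in CB1KO_SD and 6.18 to 6.74 in WT_SD. This sum is mostly Itgam, the marker that was not higher in CB1KO on HFHS. Its mean was 5.94 in WT_HFHS and 5.83 in CB1KO_HFHS, against at most 3.92 and 4.42 for the other markers. Cd163 stood well above background on 11 arrays and the other 9 markers on all 16. Higher means in CB1KO on HFHS were also seen in 7 of 8 lymphocyte, 5 of 6 fibroblast and 4 of 5 adipocyte markers. Their median differences were 0.09, 0.18 and 0.29. Neutrophil markers were higher in 3 of 5, platelet in 2 of 5, endothelial in 1 of 6 and Schwann cell markers in 0 of 4. The part of macrophages or of these other cells in these Rgs values was not tested. Rgs10 and Rgs19 followed each other over the 16 arrays with r = 0.79, and Rgs10 and Rgs14 with r = 0.66, or 0.70 and 0.58 with group means removed. Rgs14 and Rgs19 had r = 0.32, and Rgs1 and Rgs10 r = 0.63, or 0.06 and 0.70 with group means removed. These values share arrays. With the array's SD of log2 signal, Rgs19 had r = 0.72, Rgs10 r = 0.47 and Rgs14 r = -0.23. Of the other members, Rgs12 had r = 0.71, Rgs3 0.68, Rgs5 0.32, Rgs1 0.25, Rgs4 0.21, Rgs2 0.08 and Rgs16 -0.36. The part of signal spread in these values was not tested.

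**Figure D4:**
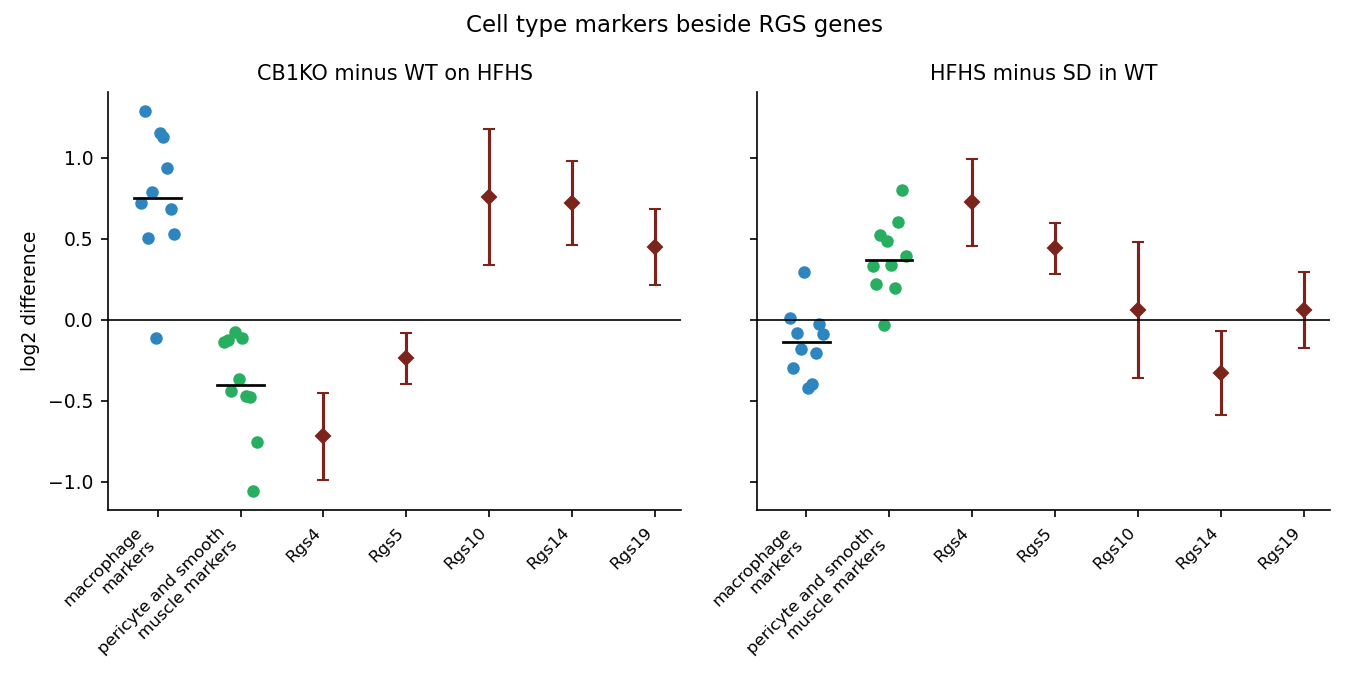
Log2 differences of 10 macrophage markers and 10 pericyte and smooth muscle markers (points, with the median as a line) beside Rgs4, Rgs5, Rgs10, Rgs14 and Rgs19 (diamonds with standard errors). The left panel gives CB1KO minus WT on HFHS and the right panel HFHS minus SD in WT. On the left 9 of 10 macrophage markers and Rgs10, Rgs14 and Rgs19 lie above 0, and 10 of 10 pericyte and smooth muscle markers, Rgs4 and Rgs5 lie below 0. On the right 2 of 10 macrophage markers lie above 0, with Rgs10 and Rgs19 at 0.06 and Rgs14 at -0.33. The members shown were picked with their values known. Of those not shown, Rgs1, Rgs2 and Rgs12 were above 0 for the left comparison (0.76, 1.65 and 0.14). Rgs3 and Rgs16 were below 0 (-0.15 and -0.06).

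Rgs12, the largest scaffold among the members, had 3 probes that passed the limit, and they disagreed. The brightest ran from 0.51 to 1.04 in WT_SD and from 0.18 to 1.29 in CB1KO_SD, where replicate 2 at 0.18 lay under the other 3 at 1.16 to 1.29. On HFHS it ran from 1.07 to 1.36 in WT and from 1.21 to 1.46 in CB1KO. The difference was 0.19 ± 0.21 on SD (limma, adjusted p = 0.880) and 0.14 ± 0.21 on HFHS (limma, adjusted p = 0.836). Without CB1KO_SD replicate 2 the SD value was 0.45, and without replicates 1, 3 or 4 of that group it was 0.079, 0.12 or 0.10. The other probes gave 0.57 and -0.08 on SD and -0.92 and -0.17 on HFHS. The groups of the probe at -0.92 did not overlap on HFHS, running from -3.26 to -2.42 in WT and from -4.85 to -3.37 in CB1KO. In this direction 6.71% of all genes did not overlap, by their brightest probe.

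The diet comparison asks how the rich diet changed each gene within a genotype. In WT 0 of 10 members passed (limma), as did 0% of all genes, and 2 of 10 had an unadjusted p under 0.05, against 6.02% of all genes. In CB1KO 0 of 10 passed against 0.0276% of all genes, again with 2 under an unadjusted 0.05, against 9.56%. In WT, Rgs4, Rgs5 and Rgs12 were higher on every HFHS array than on every SD array, as held for 2.19% of all genes. Rgs4 differed by 0.73 ± 0.27 (limma, adjusted p = 0.725), Rgs5 by 0.44 ± 0.16 (limma, adjusted p = 0.719) and Rgs12 by 0.44 ± 0.21 (limma, adjusted p = 0.855). The second Rgs4 probe gave 0.50, and the other Rgs12 probes gave 0.05 and 0.54. In CB1KO the same genes differed by 0.14 ± 0.27, -0.04 ± 0.16 and 0.39 ± 0.21. There the second Rgs4 probe gave -0.15, and the other Rgs12 probes, in the same order, gave -1.45 and 0.45, so the signs differed between probes. The 2 diet contrasts share no arrays, and their difference is the interaction.

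In CB1KO, Rgs16 was lower on every HFHS array than on every SD array, as held for 1.2% of all genes. The difference was -1.04 ± 0.24, a fold of 0.486 (limma, adjusted p = 0.141), and in WT it was -0.35 ± 0.24 (limma, adjusted p = 0.956). The CB1KO value was -0.66 with quantile normalization and -0.25 with normexp and quantile normalization. Rgs10 was 0.74 ± 0.42 higher (limma, adjusted p = 0.603) and Rgs19 0.57 ± 0.23 higher (limma, adjusted p = 0.442) on HFHS in CB1KO, and both were at 0.06 in WT. Without both arrays of unusual spread these CB1KO values were 0.23 for Rgs10 and 0.23 for Rgs19. Beside them 10 of 10 macrophage markers had higher means on HFHS in CB1KO and 2 of 10 in WT. Adipocyte markers had higher means on HFHS in 5 of 5 in CB1KO and 4 of 5 in WT, and fibroblast markers in 6 of 6 in both. None of these markers passed, 42.5% of all genes had higher means in CB1KO and 42.6% in WT, and the part of these cells was not tested. Rgs14 was at 0.39 ± 0.26 in CB1KO and -0.33 ± 0.26 in WT, Rgs3 at 0.27 ± 0.23 and 0.02 ± 0.23, and Rgs1 at -0.30 ± 0.66 and 0.12 ± 0.66. The other Rgs3 probes gave -0.36 and 0.19 in CB1KO and -0.35 and 0.30 in WT. The groups of the probe at -0.36 did not overlap in CB1KO, as held for 1.2% of all genes in this direction by their brightest probe.

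**Figure D5:**
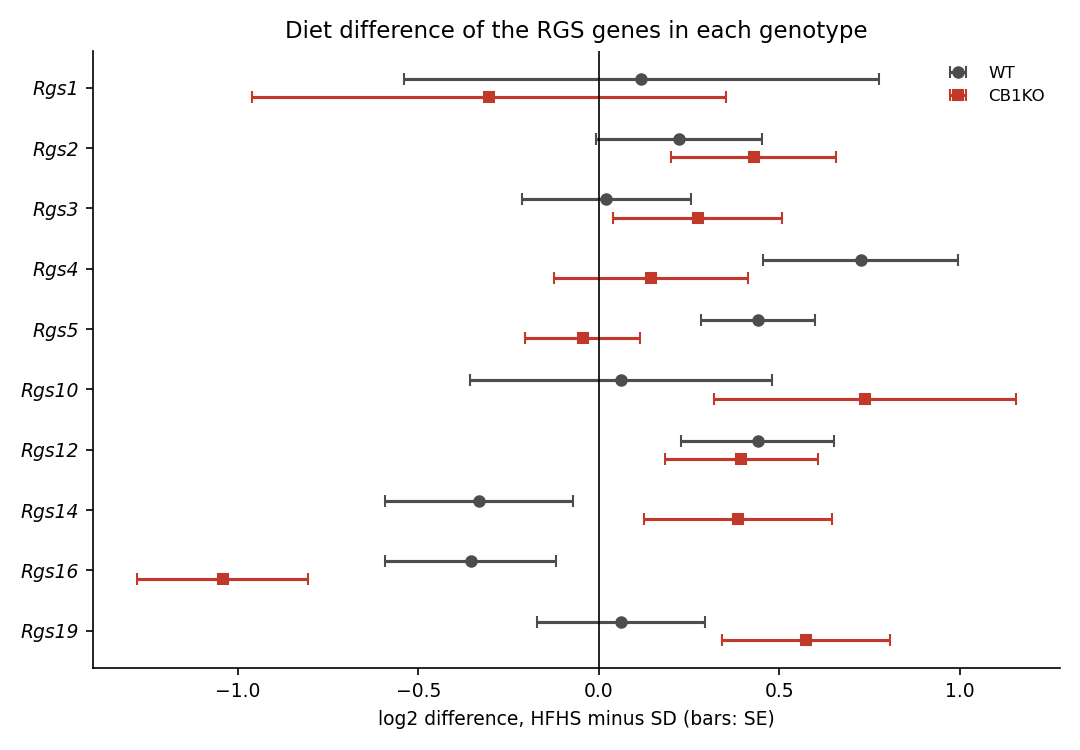
Log2 difference between HFHS and SD for the 10 RGS genes in WT (circles) and CB1KO (squares), with standard errors. Rgs4, Rgs5 and Rgs12 lie above 0 in WT at 0.73, 0.44 and 0.44, and Rgs16 lies lowest in CB1KO at -1.04. None passed the threshold.

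The wider pathway was described from lists of other RGS proteins and anchors, proteins with an RGS homology domain, G protein subunits, modulators, effectors, receptors and target genes, 130 genes of which 123 were tested. None of the 123 passed in any of the 6 contrasts (limma). At an unadjusted p under 0.05 there were 20 on SD and 10 on HFHS between genotypes, 16 averaged, 6 for the interaction, 9 for diet in WT and 18 for diet in CB1KO. Over all genes the shares under an unadjusted 0.05 were those given above, 8.72%, 8.97%, 14.2%, 3.54%, 6.02% and 9.56% in the same order. Their median difference between genotypes was -0.01 on SD and -0.04 on HFHS, beside -0.12 and -0.13 over all genes.

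Among the other RGS genes and anchors, 10 of 13 were tested. Rgs7bp anchors RGS proteins of the Rgs7 group at the membrane. It was at -1.59, -1.53, -1.84 and -1.89 in WT_HFHS and at -1.962, -2.43, -2.40 and -2.56 in CB1KO_HFHS, with no overlap, as held for 6.71% of all genes in this direction. The difference was -0.62 ± 0.15 (limma, adjusted p = 0.147). With normexp and quantile normalization it was -0.39 (limma, adjusted p = 0.552). With array weights it was -0.79 (limma, adjusted p = 0.00120), where 4.33% of all genes were called lower. Without CB1KO_HFHS replicate 1 it was -0.75 (limma, adjusted p = 0.0425), where 133 of 28964 genes passed. Over the alternatives its adjusted p (limma) lay between 0.00120 and 0.773. In WT it was 0.56 ± 0.15 higher on HFHS than on SD (limma, adjusted p = 0.608).

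Of the genes induced by cyclic AMP and calcium, 10 were tested and none passed in any contrast. For CB1KO minus WT on SD all 10 were above 0, as were 32.6% of all genes, with a median of 1.31 and a range of 0.02 to 2.81, and 7 had an unadjusted p under 0.05, against 8.72% of all genes. On HFHS 6 of 10 were above 0, as were 32.3% of all genes, and the median was 0.12. Slow fibre markers had medians of 2.96 on SD and 0.07 on HFHS, with 7 of 7 and 4 of 7 above 0, and neutrophil markers were above 0 on SD in 5 of 5. The part of these cells in the values of the induced genes was not tested. Sik1, a kinase induced by cyclic AMP, differed by 1.59 ± 0.38 over both diets (limma, adjusted p = 0.0789), with 1.84 on SD and 1.35 on HFHS. Its adjusted p (limma) lay between 0.00620 and 0.118 over the alternatives, and between 0.0295 and 0.158 with 1 array left out. Nr4a2, a nuclear receptor of the same early response, differed by 1.74 ± 0.55 over both diets (limma, adjusted p = 0.173), and Nr4a1 by 1.22 ± 0.37 on SD (limma, adjusted p = 0.343). In CB1KO, 8 of 10 induced genes were below 0 on HFHS relative to SD, as were 7 of 7 slow fibre markers, where 42.5% of all genes were above 0. Fos was at -4.05 ± 1.15 (limma, adjusted p = 0.236) and Egr1 at -3.42 ± 0.91 (limma, adjusted p = 0.205). Ppargc1a, a coactivator of mitochondrial genes, was 0.56 ± 0.18 higher on HFHS in WT (limma, adjusted p = 0.634).

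Of 27 receptors tested, 13 were above 0 for CB1KO minus WT on SD and 14 on HFHS, beside 32.6% and 32.3% of all genes. Ednrb, an endothelin receptor, differed by 0.59 ± 0.17 over both diets (limma, adjusted p = 0.128) and Adra2a, an alpha adrenergic receptor coupled to Gi, by -0.66 ± 0.19 (limma, adjusted p = 0.140). F2r, the thrombin receptor, was at 0.73 ± 0.21 on SD (limma, adjusted p = 0.331). In CB1KO the prostaglandin receptor Ptger4 was at -1.22 ± 0.30 for HFHS minus SD (limma, adjusted p = 0.165), and in WT the endothelin receptor Ednra was at 0.51 ± 0.19 (limma, adjusted p = 0.725).

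All 13 alpha subunits and 15 of 16 beta and gamma subunits were tested. Gnb5, the beta subunit that pairs with RGS proteins of the Rgs7 group, was at -0.46 ± 0.19 between genotypes on HFHS (limma, adjusted p = 0.480). Under array weights it was -0.53 with adjusted p = 0.00802 (limma), where 4.33% of all genes were called lower. Gna14, a Gq class alpha subunit, was at 0.77 ± 0.27 for diet in WT (limma, adjusted p = 0.706), and Gnao1, the Go alpha subunit, at 0.66 ± 0.26 for diet in CB1KO (limma, adjusted p = 0.425). Among effectors, Prkacb, a catalytic subunit of protein kinase A, was at -0.32 ± 0.10 over both diets (limma, adjusted p = 0.167) and Pde7b, a cyclic AMP phosphodiesterase, at -0.40 ± 0.14 (limma, adjusted p = 0.206). Plcb1, a phospholipase C driven by Gq, was at 0.48 ± 0.19 for diet in WT (limma, adjusted p = 0.738), 0.094 with the mean of its probes and 0.76 with quantile normalization. Gpsm2, which binds inactive Gi subunits, was at 0.66 ± 0.22 on HFHS between genotypes (limma, adjusted p = 0.360), and Arrb1, an arrestin, at 0.58 ± 0.18 for diet in CB1KO (limma, adjusted p = 0.280). Grk5, a receptor kinase with an RGS homology domain, was at 0.34 ± 0.13 for diet in both WT (limma, adjusted p = 0.738) and CB1KO (limma, adjusted p = 0.405). Without both arrays of unusual spread, the diet values in CB1KO were 0.30 for Arrb1 and 0.20 for Grk5. With normexp and quantile normalization, the averaged values were -0.43 for Adra2a and -0.19 for Prkacb.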

How the data were processed

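Feature Extraction 11.5.1.1 produced the deposited files of 16 one-colour arrays, per the file headers. Its processed intensity has each array's own background removed and no scaling across arrays. The series table deposited by the authors holds a score per spot, which on checking was the log2 processed intensity standardized per array (centred on the mean, in units of the SD), within 0.00502. The processing steps behind it are not given in the sources used here. The number of arrays limits the precision.

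The log2 processed intensity minus the array's 75th percentile over averaged probes was analysed, with outlier spots (0.299%) left out and repeated spots averaged. Genes needed a probe well above background on at least 4 of 16 arrays, which left 28964, and the brightest probe stood for each. A mean per group was fitted with limma 3.58.1 under R 4.3.3 (functions lmFit and eBayes), and two-sided p-values were adjusted by Benjamini-Hochberg over all genes with a threshold of 0.05. Marker levels are log2 of summed linear values. The model was tested on simulated data.

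The members, lists, tests and alternatives were chosen with earlier results of these data known. The genes named are all members, up to 2 of each list with the smallest p in a contrast (of which some are given), the 5 most like Rgs2, and Rgs18 for its position. Accessions in the array files were looked up in a RefSeq table, which named 28026 of 55681 probes. The array grid is on an older build, so coordinates are given only with promoter sequences. Same-numbered arrays did not deviate together (r from -0.75 to 0.61), so replicate numbers were not used as pairs.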

Additional observations from a re-analysis of the deposited data

Results flagged for a closer look

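Among 40 sets of 4 arrays (10 members in 4 groups), 2 held an array far from the other 3, and chance marks about 1 in 20. Rgs10 stood at 2.87 on CB1KO_HFHS replicate 1, where the rest of that group lay between 1.67 and 1.82. Rgs12 stood at 0.18 on CB1KO_SD replicate 2, against 1.16 to 1.29 on the others. These are the arrays with the widest and the narrowest spread of log2 signal, 3.97 and 2.89, and the part of that spread in both values was not tested.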

How the results depend on the processing

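The 77 single-gene values were recomputed under 14 alternatives, each where it applied, and with each of 16 arrays left out, which gave 1723 values. Of these, 1646 kept their sign and side of the threshold, 20 kept their sign and newly passed, and 57 turned sign. Of the 1646, 211 moved by over 1.5 times. Of the 20, those of Rgs4, Rgs14, Rgs7bp, Sik1 and Gnb5 are in part given with the results. Array weights also brought the averaged values of Nr4a2 (2.21), Adra2a (-0.83) and Prkacb (-0.29) past the threshold, as signal spread as a covariate did for Prkacb (-0.35) and leaving out CB1KO_SD replicate 1 for Adra2a (-0.80). In the averaged contrast, 1961 of 28964 genes passed with array weights, 1752 with the covariate and 115 without that array, against 205 in the main fit. Rgs2 was 1.44 to 1.62 higher in CB1KO on SD and 1.64 to 1.86 on HFHS over the alternatives, and 1.26 to 1.56 and 1.54 to 1.86 with 1 array left out. Of the other 9 members, 2 passed with array weights on HFHS, Rgs4 lower and Rgs14 higher, where 4.33% of all genes were called lower and 2.91% higher. None of the 9 passed under another alternative. Their count was 0 in each comparison with any 1 array left out. The replicate block, with the number taken as a block, gave 0 in each comparison and changed no call of a member. Of 16 arrays, 5 correlated best with an array of their own number. Over all genes it lowered the averaged count from 205 to 59. The slide as a block was fitted with a genotype effect shared by both diets, so it gave a value only for the averaged genotype contrast. The genotype values on each diet are the within-slide values.

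The values that turned sign were these, and the cause was not tested. With the mean of a gene's probes, Rgs4 on SD was 0.032, Rgs12 on HFHS -0.32, and for diet Rgs3 in WT -0.012, Rgs19 in WT -0.011, Rgs4 in CB1KO -0.00048 and Rgs12 in CB1KO -0.20. With normexp and quantile normalization, Rgs14 on SD was -0.067, Rgs16 on HFHS 0.16, Rgs3 for diet in WT -0.056 and Rgs21 on SD 0.061. With quantile normalization, Rgs14 on SD was -0.085, Rgs16 on HFHS 0.19 and Rgs3 for diet in WT -0.00922. With the deposited scores, Rgs16 on HFHS was 0.12 and Rgs1 for diet in CB1KO 0.043. With array weights, Rgs14 on SD was -0.050, Rgs19 on SD 0.093, Rgs16 on HFHS 0.12, Rgs3 for diet in WT -0.028 and Rgs18 on HFHS -0.050. With signal spread as a covariate, diet values in WT were -0.047 for Rgs1, -0.14 for Rgs3, -0.086 for Rgs10 and -0.078 for Rgs19. Without both arrays of unusual spread, Rgs14 on SD was -0.10, Rgs19 on SD 0.11, Rgs16 on HFHS 0.030, Rgs3 for diet in CB1KO -0.053 and Rgs18 on HFHS -0.10. With 1 array left out, genotype values on SD ran from -0.22 to 0.39 for Rgs10, -0.16 to 0.28 for Rgs14, -0.23 to 0.11 for Rgs19 and -0.84 to 0.034 for Rgs21, and on HFHS from -0.20 to 0.066 for Rgs16 and -0.10 to 0.50 for Rgs18. Diet values in WT ran from -0.51 to 0.48 for Rgs1, -0.16 to 0.15 for Rgs3, -0.24 to 0.37 for Rgs10 and -0.060 to 0.18 for Rgs19. Those in CB1KO ran from -0.61 to 0.18 for Rgs1, -0.085 to 0.34 for Rgs4 and -0.17 to 0.078 for Rgs5.

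Signal over background limits Rgs1 and Rgs16, whose probes stood well above background on 10 and 14 of 16 arrays. Over the 16 arrays, the share of spots well above background had r = 0.66 with Rgs4, -0.63 with Rgs16 and -0.55 with Rgs1. For the other members it lay between -0.37 and 0.38, and the part of that share in the values was not tested. With 4 arrays per group, differences that missed the threshold are not shown to be absent.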
